A study of Rattus norvegicus with 12 samples.

Results

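The thoracic aorta of untreated spontaneously hypertensive rats (SHR-C) was compared with that of normotensive Wistar-Kyoto rats (WKY). The arrays were chosen by their titles, which gave 6 of the 12 arrays in the study, 3 in each group. Within them the description follows the 38 genes that could be named on the array, of which 32 passed the filter on dim probes, and 2 larger sets of probes without a gene name.

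Cy3-labelled total RNA was read on Agilent arrays of 1 colour. The WKY group held male Wistar-Kyoto rats and the SHR-C group held male SHRs, and both received drinking water by gavage in the same volume as the drug-treated groups, once a day for 16 weeks. The other arrays came from SHRs given a high dose of BSJY, a preparation of herbal granules (SHR-Bh), or captopril, an inhibitor of angiotensin-converting enzyme (SHR-Ca), and a low-dose BSJY group named in the labels was not analysed here. The study began with rats of 12 weeks, which with 16 weeks of gavage gives 28 weeks, whereas each sample is labelled 32 weeks old, and which of them holds is not settled here. The labels' protocol also says that the aorta was irradiated, gives no dose, and says so of both strains. SHR and WKY are inbred strains, and they differ at many loci besides those that act on blood pressure. Whether each array is 1 animal is not in the labels, so p-values measure only the spread between these samples, which may be technical.

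The thoracic aorta is an elastic artery whose wall holds smooth muscle, endothelium, fibroblasts and, outside it, fat and nerve fibres. In long-standing hypertension the wall thickens and stiffens, and smooth muscle cells grow and lay down matrix. The classical control systems of arterial pressure are the renin-angiotensin system and nitric oxide made by the endothelium.

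None of the 13 genes listed for the renin-angiotensin system, nitric oxide and endothelin was named on the array. None of 38 markers on 8 lists of cell types, smooth muscle and endothelium among them, was named either, so the label aorta could not be checked by markers. In such bulk tissue, fewer cells of a type and less RNA per cell cannot be told apart. Of 38321 probes, 37277 carried only an identifier of the array design, 962 were for 481 ultraconserved elements on both strands, 62 carried an accession and 20 were custom probes without a name. Of the 62 accession probes, 39 matched the 38 genes in RefSeq's rat gene table.

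RefSeq's table of promoters held an entry for 12 of the 19 genes that rose. The 250 bases before the start of the first 2 genes in order of rise, Cyp2e1 and Ppp2r2b, are shown because these 2 differed most of the named genes with an entry. Capitals mark a TATA box (TATAAA) and a CCAAT box (CCAAT, read as ATTGG on the other strand), searched on both strands. Both windows are on build GRCr8 and written 5′ to 3′ along the gene, with Cyp2e1 at chr1:205269717-205269966 on the plus strand and Ppp2r2b at chr18:35203015-35203264 on the minus strand.
Cyp2e1: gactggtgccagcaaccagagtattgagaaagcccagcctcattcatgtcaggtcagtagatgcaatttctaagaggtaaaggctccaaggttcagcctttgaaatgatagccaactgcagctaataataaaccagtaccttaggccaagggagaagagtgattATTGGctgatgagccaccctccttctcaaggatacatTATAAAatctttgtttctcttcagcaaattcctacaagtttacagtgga
Ppp2r2b: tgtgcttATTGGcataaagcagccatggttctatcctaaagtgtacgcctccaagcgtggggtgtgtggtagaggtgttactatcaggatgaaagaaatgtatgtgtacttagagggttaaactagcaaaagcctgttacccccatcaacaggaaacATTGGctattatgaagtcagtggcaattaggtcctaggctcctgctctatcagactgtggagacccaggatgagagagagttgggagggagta
In the Cyp2e1 window the TATA box begins at position -49 and the CCAAT box at -86, counted back from the annotated start. The Ppp2r2b window holds 2 CCAAT boxes, the farther one at -243, and no TATA box. Among 33469 rat promoters of the same length, 12.9% hold the TATA letters, 34.0% the CCAAT letters and 30.5% a GC box (GGGCGG, either strand). Of the 12 windows of genes that rose, 2 hold the first, 7 the second and 6 the third. These are matches of letters, which the arrays do not test.

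The groups differed in how and when their arrays were read, so this stands before the results. Scan times in the file headers put the 3 WKY arrays in 1 session. SHR-C 1 was in another, and SHR-C 2 and SHR-C 3 were in the third. The WKY arrays were scanned 629 days after the last SHR-C scan, so strain and scan session cannot be told apart. The detector voltage was 355 on each WKY array and 356 on each SHR-C array. The 75th percentile of intensity ranged from 182 to 384.8 for WKY and from 150.7 to 190.2 for SHR-C, and the median was 41.12 to 82.61 against 17.02 to 26.3. Probes well above background made up 74.0%, 83.8% and 87.9% on WKY 1, 2 and 3 and 68.8%, 66.4% and 58.8% on SHR-C 1, 2 and 3. All WKY values lay above all SHR-C values, with means of 81.9% ± 7.18 and 64.6% ± 5.22 (SD, n = 3 each; exact two-sided permutation test, p = 0.1, the smallest that 3 arrays against 3 allow).

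Control probes, which were not among the probes tested, differed the same way. The mean log2 intensity of 10 E1A probes was 3.16, 3.42 and 3.38 on WKY 1, 2 and 3 and 2.16, 1.53 and 1.77 on SHR-C 1, 2 and 3, a difference of -1.50 (exact two-sided permutation test, p = 0.1, n = 3 each). Of these probes 8 of 10 had every WKY array above every SHR-C array, as did 4 of 4 eQC probes, 11 of 13 ETG probes and 10 of 12 RC probes, and in none of these 4 families did a probe have SHR-C above WKY. The median of the negative controls was 2.35, 2.29 and 1.87 on WKY 1, 2 and 3 and 1.67, 1.17 and 1.81 on SHR-C 1, 2 and 3. The RC probes and the dimmest E1A and ETG probes lay at that level, so for them the order repeats the background. Feature Extraction recorded a dose slope of 0 for the E1A series on all 6 arrays, so these probes gave no scale between arrays. With the plain median signal, background included, the E1A difference was -0.39. The part of these differences in the results on dim probes was not tested.

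**Figure D1:**
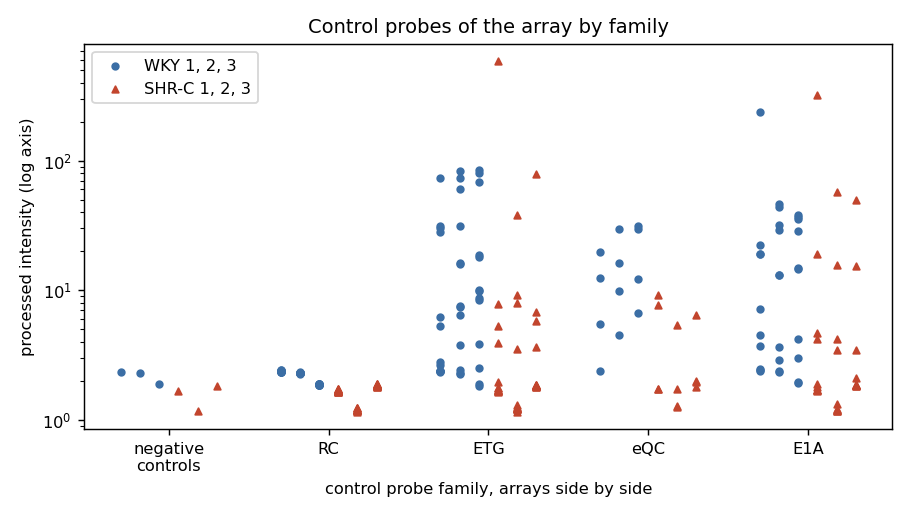
Processed intensity of the array's control probes on a log axis, by probe family, with WKY arrays as circles and SHR-C arrays as triangles, each family's columns in the order WKY 1, 2, 3, SHR-C 1, 2, 3; 1 point is 1 probe, and the negative controls are shown by their median. All 4 eQC probes and 8 of 10 E1A probes were brighter on every WKY array than on any SHR-C array.

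Levels below are the log2 processed intensity of a probe minus the 75th percentile of its array, and a difference is the mean of SHR-C minus the mean of WKY on that scale, with its standard error (SE) and the adjusted p of limma over all probes tested. Tests were run on probes that reached the level well above background on each array of WKY, of SHR-C or of both. Of 29348 probes tested, 66% passed an adjusted p of 0.05 (19378 probes), 24.0% as higher in SHR-C (7035) and 42.1% as lower (12343). The median difference over all tested probes was -0.44 and their median SE 0.27. In 71.6% of tested probes the 2 groups did not overlap, and in 26.9% all SHR-C arrays lay above all WKY arrays. The share of higher calls among all calls was 36.3%, and it turned to 46.5% with quantile normalization, 56.6% with normexp background correction and 28% when the percentile was taken over the probes that were well above background throughout, so the balance of directions depends on the scaling.

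Of the 32 named genes tested, 19 were higher in SHR-C, 2 were lower and 11 did not pass. Their median difference was 0.86, against -0.44 over all probes. In 21 genes the groups did not overlap, 19 of them higher and 2 lower, and 13 of the genes that rose did so at least 2-fold. Over all tested probes 71.6% did not overlap, 26.9% with SHR-C above, so separate groups as such do not mark the named genes. Under every setting that tested them, 13 genes were called higher. The calls of Hprt1, Hsp90ab1, Mex3c, Nat1, Rpl13a and Slc28a2 were each lost with at least 1 of the other scalings or with normexp. Named genes were read on 10 or 30 spots per array where most probes have 1, with a median SD between spots of 0.069, and 29 of the 32 reached that level on all 6 arrays, so they are not a sample of all probes. The 10 reference genes on 30 spots gave 3 higher, 1 lower and 6 not passed with a median of -0.09, and the other 22 gave 16 higher, 1 lower and 5 not passed with a median of 1.18. The 32 genes were tested whatever they did, but the filter needs a bright signal in 1 group. P2rx2 and Mex3c, both counted as higher, passed it only through SHR-C.

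**Figure D2:**
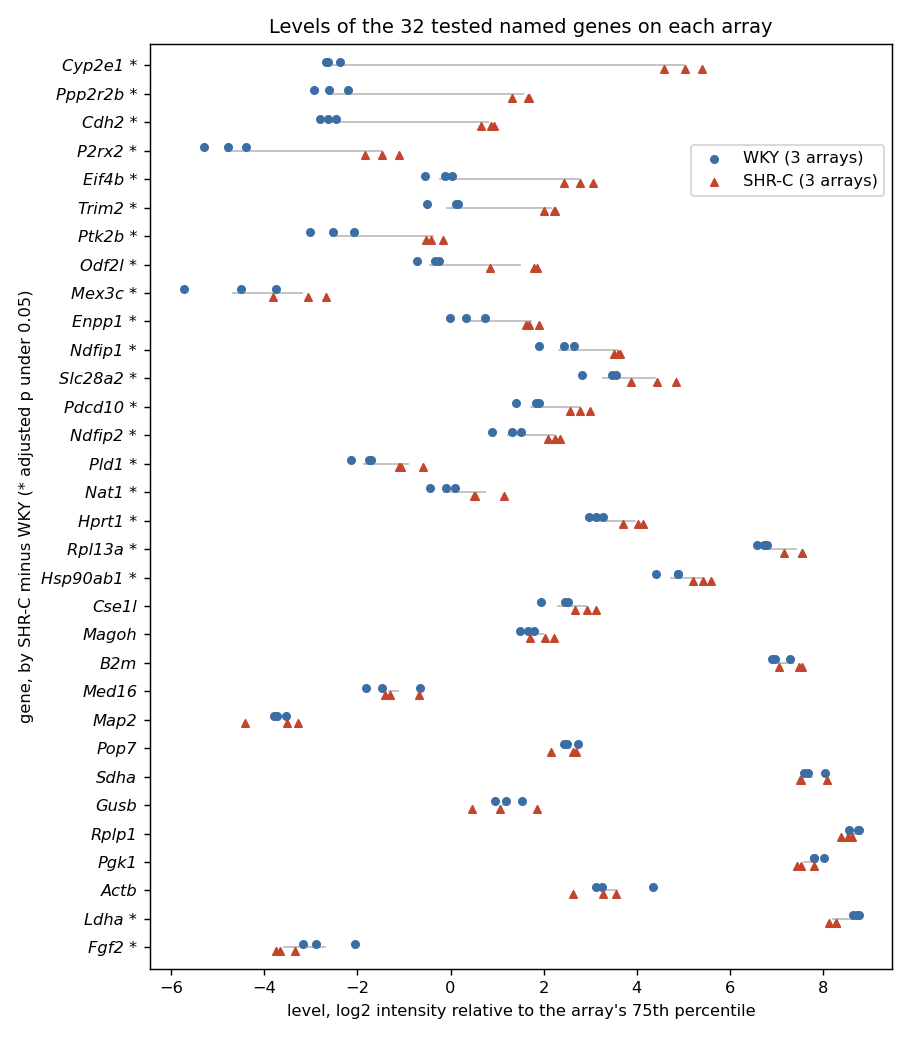
Levels of the 32 tested named genes on each array (log2 scale, set against the 75th percentile of that array), ordered by the difference SHR-C minus WKY, with WKY as circles, SHR-C as triangles and a grey line between the group means; an asterisk marks an adjusted p under 0.05. The groups are farthest apart for Cyp2e1, at -2.56 in WKY and 5.01 in SHR-C, and overlap in most genes of the lower part, such as Actb, Gusb and Sdha.

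Genes are grouped below by lists chosen with earlier results of these data known, so counts on a list do not test its theme. Both named genes of xenobiotic metabolism rose, beside 19 of the 32 named genes and 24.0% of all tested probes. Cyp2e1 encodes a cytochrome P450 that oxidises ethanol, acetone and many small solvents, best known from liver. Its level was -2.67, -2.38 and -2.63 on WKY 1, 2 and 3 and 5.03, 4.59 and 5.41 on SHR-C 1, 2 and 3. Every SHR-C array lay far above every WKY array, and Cyp2e1 was well above background on all 6. The difference was 7.57 ± 0.26 (SE), or 190-fold, with a limma adjusted p of 1.7e-05. It shrank to 6.05 with normexp background correction, so the fold depends on the background step. On the main scale the difference was 7.59 for SHR-C 1 alone and 7.56 for SHR-C 2 and 3 from the other session. Both values use the same WKY session, so they do not part strain from scan session. Liver and fat express this gene strongly, and since none of their markers was named, their part was not tested.

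Nat1, an arylamine N-acetyltransferase, conjugates aromatic amines with acetyl groups. It stood at -0.45, 0.09 and -0.09 on the WKY arrays and 0.54, 0.50 and 1.16 on the SHR-C arrays. The groups lay apart by a small margin, with a difference of 0.88 ± 0.27 (limma adjusted p = 0.022). Nat1 missed the threshold without WKY 1 (adjusted p = 0.072), without WKY 3 (0.054) or without SHR-C 3 (0.057), and with the scan session as a random block (0.057).

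Of the adhesion genes listed, only Cdh2 was named on the array. It encodes N-cadherin, which joins cells to their neighbours in smooth muscle, heart and nerve. The level was -2.64, -2.46 and -2.81 on the WKY arrays and 0.93, 0.86 and 0.65 on the SHR-C arrays. No array of one group came near the other, and the arrays within a group differed little. Cdh2 rose by 3.45 ± 0.20, or 10.9-fold (limma adjusted p = 2.5e-05). The rise shrank to 2.21 with normexp background correction (limma adjusted p = 0.00019), so its size depends on the background step.

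The 3 genes listed for signalling in nerve and by calcium rose, beside 19 of the 32 named genes and 24.0% of all tested probes. The list was chosen with earlier results of these data known. Map2, a microtubule protein of neurons, was not on it and did not pass (-0.05, limma adjusted p = 0.89). Ppp2r2b encodes a regulatory B subunit of protein phosphatase 2A, best known from neurons, that directs the enzyme to its targets. It measured -2.93, -2.60 and -2.21 on WKY 1, 2 and 3 and 1.67, 1.69 and 1.33 on SHR-C 1, 2 and 3. The groups were widely apart, by 4.14 ± 0.25 or 17.7-fold (limma adjusted p = 2.7e-05). P2rx2 encodes an ATP-gated cation channel of sensory and autonomic nerves. Its level was -5.29, -4.78 and -4.40 on the WKY arrays and -1.47, -1.10 and -1.85 on the SHR-C arrays. P2rx2 was well above background on 2 of 3 WKY arrays and on all SHR-C arrays, so it passed the filter only through SHR-C. Its groups did not overlap, but that is no separate support, since the filter needed a bright signal in SHR-C. The difference was 3.35 ± 0.31 (limma adjusted p = 1e-04, and 0.00016 with no filter on dim probes). It shrank to 1.37 with normexp background correction (adjusted p = 0.0058). Ptk2b encodes Pyk2, a tyrosine kinase activated by calcium and by angiotensin II in smooth muscle. It stood at -3.01, -2.52 and -2.07 in WKY and at -0.42, -0.15 and -0.53 in SHR-C. Again the groups did not overlap, and the rise was 2.17 ± 0.28, or 4.50-fold (limma adjusted p = 0.00048). With normexp the Ptk2b rise was 1.29 and that of Ppp2r2b was 2.84. With all 4 groups in the fit the limma adjusted p was 0.022 for Ppp2r2b, 0.038 for P2rx2 and 0.009 for Ptk2b. All 3 genes varied widely between treated SHR arrays, as given under the other observations.

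The 4 named genes of ubiquitin transfer all passed as higher, beside 19 of the 32 named genes and 24.0% of all tested probes. Trim2 encodes a RING ubiquitin ligase. Its level was -0.51, 0.17 and 0.12 on the WKY arrays and 2.01, 2.23 and 2.24 on the SHR-C arrays. The 2 groups were clearly separate, by 2.24 ± 0.25 or 4.71-fold (limma adjusted p = 0.00023). Ndfip1 and Ndfip2 encode membrane adaptors that recruit and activate ligases of the Nedd4 family. Ndfip1 stood at 1.89, 2.44 and 2.64 in WKY and 3.52, 3.63 and 3.60 in SHR-C, higher by 1.26 ± 0.25 (limma adjusted p = 0.0032). Ndfip2 stood at 0.90, 1.51 and 1.32 in WKY and 2.09, 2.25 and 2.35 in SHR-C, higher by 0.99 ± 0.23 (adjusted p = 0.0075). In both adaptors every SHR-C array was above every WKY array, with WKY 1 the lowest. Mex3c encodes an RNA-binding ubiquitin ligase. It measured -5.73, -4.51 and -3.76 on WKY 1, 2 and 3, where 2 of 3 arrays were well above background, and -3.06, -2.67 and -3.82 on SHR-C 1, 2 and 3. Mex3c also passed the filter only through SHR-C, and its limma adjusted p with no filter was 0.048. SHR-C 3 lay below WKY 3, so the groups overlapped, and Mex3c was the weakest of the 4 calls at 1.49 ± 0.53 (limma adjusted p = 0.042). Mex3c no longer passed on leaving out WKY 1 (adjusted p = 0.094), WKY 2 (0.078), SHR-C 1 (0.077) or SHR-C 2 (0.13), and with the session as a random block (0.094).

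Of 3 named translation genes 2 rose, beside 24.0% of all tested probes. Eif4b encodes a cofactor of the helicase that unwinds mRNA for ribosome loading. Its level was -0.56, -0.12 and 0.03 on the WKY arrays and 2.43, 2.79 and 3.06 on the SHR-C arrays. The groups were far apart, by 2.98 ± 0.26 or 7.87-fold (limma adjusted p = 8.5e-05). Rpl13a, a protein of the large ribosomal subunit, stood at 6.73, 6.81 and 6.59 in WKY and at 7.55, 7.17 and 7.56 in SHR-C. It was higher by 0.72 ± 0.21 (limma adjusted p = 0.019) with no overlap, but did not pass without WKY 2 (0.055) or WKY 3 (0.075). Rplp1, a protein of the ribosomal stalk, did not pass, at -0.18 ± 0.19 (adjusted p = 0.44), with overlapping groups.

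Enpp1 was the only named gene of those listed for pyrophosphate and calcification. Its enzyme makes pyrophosphate outside the cell, an inhibitor of calcium deposition in arteries. The level was -0.01, 0.32 and 0.74 on the WKY arrays and 1.69, 1.62 and 1.90 on the SHR-C arrays. Each SHR-C array exceeded each WKY array, and Enpp1 rose by 1.39 ± 0.25, or 2.61-fold (limma adjusted p = 0.0022).

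The 2 named genes of vessel growth and stability went opposite ways. Pdcd10 encodes a scaffold protein whose loss causes cerebral cavernous malformations. It stood at 1.41, 1.91 and 1.84 in WKY and 2.57, 2.78 and 2.99 in SHR-C, without overlap, and rose by 1.06 ± 0.23 (limma adjusted p = 0.0056). Fgf2 encodes basic fibroblast growth factor, a mitogen of smooth muscle and endothelium. Its level was -3.16, -2.89 and -2.05 on WKY 1, 2 and 3 and -3.33, -3.67 and -3.75 on SHR-C 1, 2 and 3. The groups were separate by a narrow gap between WKY 1 and SHR-C 1. Fgf2 differed by -0.89 ± 0.32 (limma adjusted p = 0.045). It did not pass without WKY 2 (adjusted p = 0.075), WKY 3 (0.12), SHR-C 2 (0.11) or SHR-C 3 (0.12) or with replicate numbers as blocks (0.057), and the sign turned to 0.11 with quantile normalization and 0.15 with normexp, so no direction holds for Fgf2 across the settings.

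Pld1 encodes phospholipase D1, which makes phosphatidic acid from phosphatidylcholine. Its level was -2.14, -1.70 and -1.75 on the WKY arrays and -1.11, -1.05 and -0.59 on the SHR-C arrays. The groups did not overlap, and Pld1 rose by 0.95 ± 0.24 (limma adjusted p = 0.011). Napepld, an enzyme of the endocannabinoid pathway on the same list, was too dim to test.

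The 7 tested genes on none of these lists gave 2 rises, beside 24.0% of all tested probes. Odf2l encodes a protein of the centriole and cilium base. Its level was -0.25, -0.34 and -0.71 on the WKY arrays and 0.85, 1.86 and 1.79 on SHR-C 1, 2 and 3. The groups lay apart, though SHR-C 1 was closer to WKY than the other 2, and the rise was 1.93 ± 0.32 or 3.82-fold (limma adjusted p = 0.0015). Slc28a2 encodes a sodium-coupled nucleoside transporter that takes up adenosine and other purine nucleosides. It stood at 3.47, 3.56 and 2.82 in WKY and 4.84, 3.88 and 4.43 in SHR-C. SHR-C 2 was just above WKY 2, and Slc28a2 rose by 1.10 ± 0.33 (limma adjusted p = 0.020), a call lost without WKY 3 (0.068) or SHR-C 3 (0.059) and with all 4 groups in the fit (0.079).

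Among the other 5 of these genes, Cse1l, a nuclear export receptor for importin alpha, came nearest to a call. It stood at 1.94, 2.53 and 2.46 in WKY and 2.68, 2.93 and 3.12 in SHR-C. The groups did not overlap, but the difference of 0.60 ± 0.25 did not pass (limma adjusted p = 0.063). It passed without SHR-C 1 (0.042) and with replicate numbers as blocks (0.045). Magoh, a core protein of the exon junction complex, measured 0.33 (adjusted p = 0.22), Med16, a Mediator subunit, 0.18 (0.68), Map2, a microtubule protein of neurons, -0.05 (0.89) and Pop7, a subunit of RNase P, -0.07 (0.80). In each of these 4 the groups overlapped, and for Map2 the difference was 1.13 with quantile normalization (adjusted p = 0.0061), so its value depends on the scaling.

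By their brightest probes the 3 named genes of fuel use gave no rise. Ldha, whose enzyme converts pyruvate to lactate, is read by 2 probes that disagree. The brighter one stood at 8.74, 8.77 and 8.65 in WKY and 8.28, 8.12 and 8.28 in SHR-C, and the dimmer one at 3.37, 3.96 and 4.01 in WKY and 5.10, 5.36 and 5.15 in SHR-C. Both separate the groups, in opposite directions: the brighter by -0.49 ± 0.18 (limma adjusted p = 0.049), the dimmer by 1.42 ± 0.24 (adjusted p = 0.0017). In every setting that fitted it, the dimmer probe kept its call, at 1.11 to 1.54 with a limma adjusted p of at most 0.012. The call of the brighter probe was lost on leaving out any 1 array: WKY 1 (adjusted p = 0.11), WKY 2 (0.16), WKY 3 (0.11), SHR-C 1 (0.055), SHR-C 2 (0.11) or SHR-C 3 (0.065). It was also lost with replicate numbers as blocks (0.081), and the mean of both probes was 0.47 (0.067), so Ldha has no settled direction here. Pgk1, a glycolytic kinase, measured -0.29 ± 0.20 (adjusted p = 0.25), but -0.60 (0.025) with the percentile over probes bright throughout, and Sdha, the flavoprotein of mitochondrial complex II, -0.07 ± 0.25 (0.82). Both overlapped between the groups.

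The reference genes are commonly used as internal standards and show how far genes taken as steady moved on this scale. Beside Rpl13a and the brighter Ldha probe, Hprt1 and Hsp90ab1 passed. Hprt1, an enzyme of purine salvage, stood at 2.98, 3.28 and 3.12 in WKY and 4.03, 3.71 and 4.13 in SHR-C, apart by 0.83 ± 0.21 (limma adjusted p = 0.011, and 0.068 with normexp). Hsp90ab1, a cytosolic chaperone, stood at 4.41, 4.90 and 4.89 in WKY and 5.21, 5.60 and 5.43 in SHR-C. The groups did not overlap, and it rose by 0.68 ± 0.23 (limma adjusted p = 0.034), but not without WKY 1 (0.10), WKY 2 (0.066), WKY 3 (0.059), SHR-C 2 (0.095) or SHR-C 3 (0.072). B2m, the light chain of MHC class I, measured 0.31 (adjusted p = 0.28), Gusb, a lysosomal glucuronidase, -0.10 (0.82) and Actb, cytoplasmic actin, -0.42 (0.38), all with overlapping groups. By their brightest probes the 10 reference genes ranged from -0.49 to 0.83, and the dimmer Ldha probe lay beyond that at 1.42.

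The 6 genes not tested were Dlg4, Gdnf, Lhcgr, Napepld, Nlrp3 and Pdk3. Gdnf and Lhcgr were not well above background on any of the 6 arrays. Dlg4 was so on 1 WKY and 2 SHR-C arrays, Napepld and Nlrp3 on 1 WKY array each, and Pdk3 on 2 arrays of each group. Of the 23 accession probes that matched no gene in the table, 21 were tested, 10 of them higher, 2 lower and 9 not passed. Over all tested probes 24.0% were higher and 42.1% lower.

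The filter on dim probes bears on the counts over all probes. Tested probes were put in 5 equal bins by the mean of the group means. In the dimmest bin 84.5% of probes had passed the filter through WKY alone and 12.3% through SHR-C alone, so most of them had to be higher in WKY, and no direction is read from that bin. It held 557 higher and 4329 lower calls, 9.49% and 73.7% of its 5870 probes. In the brightest bin 1.02% had passed through WKY alone, and it held 2019 higher and 819 lower calls, 34.4% and 14.0%. Restricted to the 20607 probes bright enough on all 6 arrays (53.8% of the array), the calls were 6001 higher and 5892 lower, 8714 did not pass, and the median difference was 0.06. In that set, which leaves out probes that dropped below the level in either group, the counts ran from 700 higher and 1588 lower in the dimmest bin to 1352 higher and 512 lower in the brightest.

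**Figure D3:**
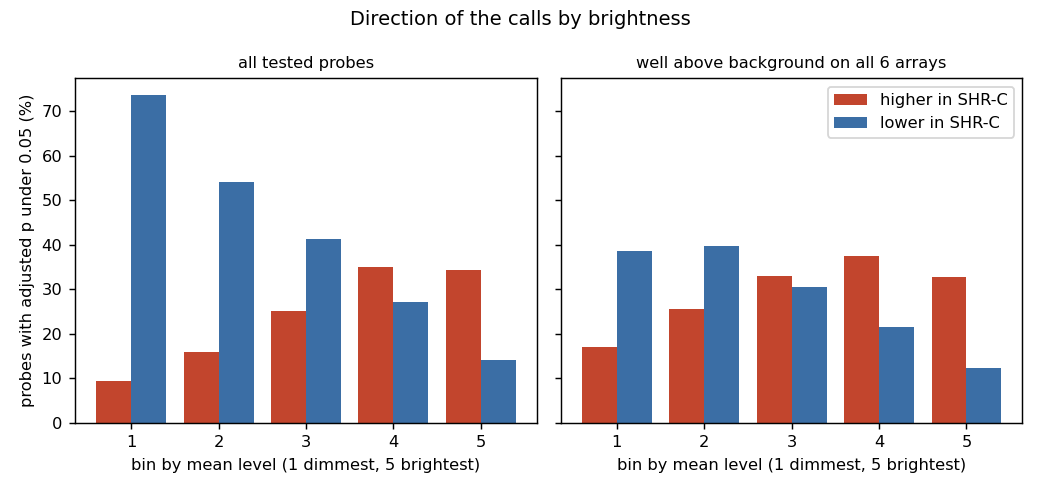
Percent of probes higher (red) and lower (blue) in SHR-C at an adjusted p under 0.05, in 5 bins of mean level from dimmest (1) to brightest (5), for all tested probes (left) and for those well above background throughout (right). The dimmest bin on the left shows 73.7% lower and 9.49% higher, but 84.5% of its probes had passed the filter through WKY alone.

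Large differences went both ways. Of the same 20607 probes, 4477 were at least 2-fold higher and 4727 at least 2-fold lower in SHR-C, 1403 and 1844 at least 4-fold, and 93 and 264 at least 16-fold. Detection itself was uneven: 3500 probes were well above background on all 3 WKY arrays and no SHR-C array, 12.5% of the 28070 on all 3 WKY arrays. The reverse held for 164 probes, 0.749% of the 21885 on all 3 SHR-C arrays. Levels over all tested probes correlated between arrays at 0.954 to 0.989 within WKY, 0.959 to 0.987 within SHR-C and 0.805 to 0.83 between the groups, and probes are not independent.

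**Figure D4:**
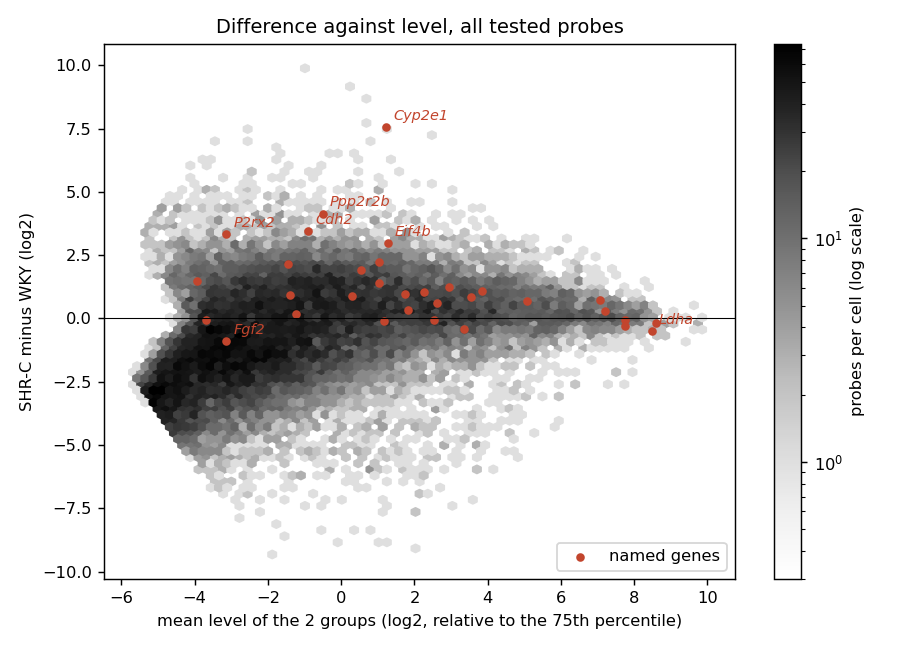
Difference SHR-C minus WKY (log2) against the mean level of the groups (same scale) for all 29348 tested probes, shaded by the number of probes per cell on a log scale, with named genes in red. Cyp2e1 stands at 7.57, and the dim probes on the left, which mostly passed the filter through WKY alone, lie largely below 0.

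The 4 unnamed probes chosen for size carried design identifiers, and the files give them no gene. ASRNV20022464 stood at -1.29, -1.67 and -0.47 in WKY and at 6.06, 6.18 and 6.07 in SHR-C, higher by 7.25 ± 0.32 (limma adjusted p = 1.8e-05). ASRNV20023979 stood at -2.84, -2.88 and -2.36 in WKY and 3.91, 4.38 and 4.48 in SHR-C, higher by 6.95 ± 0.25 (adjusted p = 1.7e-05, but 0.057 with all 4 groups in the fit). ASRNV20001199 went the other way, from 6.38, 6.70 and 6.50 in WKY to -1.92, -2.50 and -3.27 in SHR-C, a difference of -9.09 ± 0.35 (adjusted p = 1.7e-05). The choice itself required all 4 probes to be well above background on all 6 arrays, past the threshold and without overlap. Their wide separation is therefore no separate support. ASRNV20009029 stood at 5.44, 6.05 and 5.31 in WKY and -3.44, -3.26 and -3.29 in SHR-C, a difference of -8.93 ± 0.25 (adjusted p = 1.7e-05). Each of the 2 that fell passed under every setting tried.

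Ultraconserved elements are stretches of genome identical between human, mouse and rat, and some are transcribed into noncoding RNA. The array read 481 of them on both strands, with 3 spots per probe. Of 962 probes 461 were tested, with 45 higher, 308 lower and 108 not passed, and the median difference was -2.04. Over all 29348 probes tested, 24.0% were higher and 42.1% lower, with a median of -0.44. This set stands on dim signals: 156 of its 445 probes well above background on all WKY arrays (35.1%) were so on no SHR-C array, against 12.5% over the whole array. Only 200 were so on all SHR-C arrays and 184 on all 6. Most of the other tested probes thus passed the filter through WKY alone, and no direction is read from the 308. With no filter, 57 of the 962 were higher and 465 lower, with a median of -0.91. The same over all 38321 probes was 7128, 14805 and -0.43. With normexp background correction 31 of the 461 were higher and 65 lower, with a median of 0.07. The 184 bright enough on all 6 arrays gave 34 higher and 72 lower calls, with a median of -0.50. All 20607 probes of that brightness gave 6001 higher and 5892 lower, with a median of 0.06. Both sets are shaped by their choice, in opposite ways. The 461 take in probes that passed through WKY alone, and the 184 leave out every probe that dropped below the level in SHR-C. Neither excess of lower calls is free of that choice.

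Both strands were tested for 130 elements. In 57 both strands were lower, in 1 both were higher, in 7 the strands were called in opposite directions, in 50 only 1 strand passed and in 15 neither did. The median difference was -2.07 on the plus strand (236 probes) and -1.97 on the minus strand (225 probes), over probes that are only in part paired. Both strands were well above background on all 3 arrays for 122 elements in WKY and 34 in SHR-C. Most of the 130 elements thus had at least 1 strand that passed the filter through WKY alone. The 57 are therefore not read as a loss on both strands. Over all tested probes 42.1% were lower and 24.0% higher. In the 30 elements where that held on all 6 arrays, a choice that leaves out elements lost in SHR-C, the median of the mean of both strands was -0.03, with 1 element higher on both strands, 3 lower on both and 1 opposite.

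**Figure D5:**
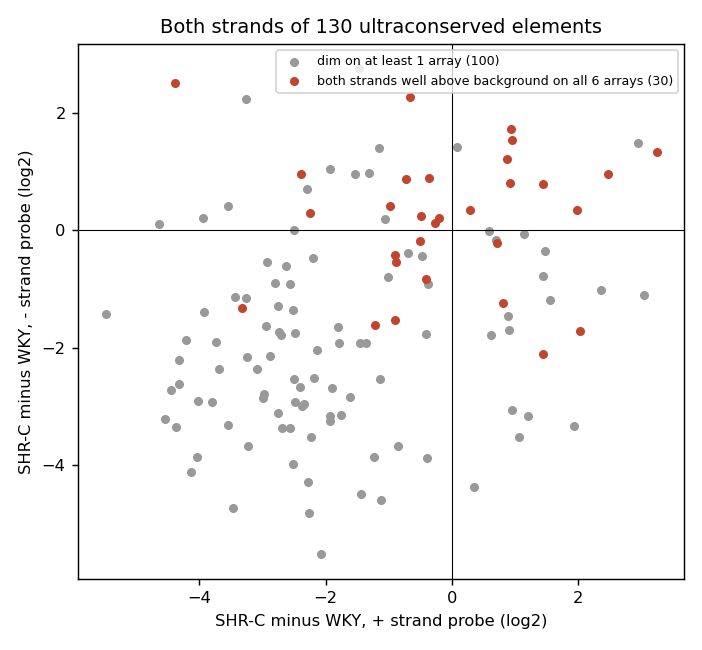
Difference SHR-C minus WKY (log2) of the plus strand probe (x axis) and minus strand probe (y axis) for the 130 ultraconserved elements with both strands tested; red marks the 30 whose strands were both well above background on all 6 arrays. The median over the red elements of the mean of both strands is -0.03, and elements that dropped below the level in SHR-C cannot be red.

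Elements were chosen by the mean of both strands among these 30, where uc.414 had the widest rise. Its plus strand stood at -1.19, -2.26 and -2.38 in WKY and 1.63, 1.26 and 1.01 in SHR-C, higher by 3.25 ± 0.36 (limma adjusted p = 0.00024). Its minus strand stood at -0.87, -0.67 and -0.47 in WKY and 0.56, 1.21 and 0.23 in SHR-C, higher by 1.33 ± 0.29 (adjusted p = 0.0055). Both strands kept the groups apart. For uc.203 the plus strand rose by 2.47 ± 0.29 (adjusted p = 0.00027), while the minus strand stood at -0.30 on SHR-C 1 and at -2.94 and -2.91 on SHR-C 2 and 3, against -2.43, -3.37 and -3.26 in WKY, and did not pass (0.97 ± 0.72, adjusted p = 0.27). Without SHR-C 1 the minus strand difference of uc.203 was 0.091, and with quantile normalization it was 1.84 and passed (adjusted p = 0.043).

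Among the same 30 elements uc.340 had the widest fall. Its plus strand stood at -0.47, -0.16 and -0.21 in WKY and -3.82, -3.33 and -3.69 in SHR-C, a difference of -3.33 ± 0.22 (limma adjusted p = 3.4e-05). Its minus strand stood at -0.58, -0.34 and -0.32 in WKY and -2.00, -1.37 and -1.84 in SHR-C, a difference of -1.32 ± 0.24 (adjusted p = 0.0021). The groups were separate on both strands, and both calls were kept under every setting tried. For uc.305 the minus strand differed by -1.62 ± 0.27 (adjusted p = 0.0014) and the plus strand by -1.22 ± 0.40 (adjusted p = 0.029), but with normexp these were -0.50 (0.13) and -0.02 (0.96). The plus strand call of uc.305 was also lost without WKY 1 (0.072), WKY 2 (0.073), WKY 3 (0.062), SHR-C 2 (0.097) or SHR-C 3 (0.099).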

How the data were processed

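The authors deposited 1 scanner output per array, and the intensity of each spot was used. The processed intensity, per the file headers, had been corrected for background and spatial trend by Feature Extraction 11.0.1.1 from Agilent, array by array, with no step between arrays. Of 41623 spots that are not controls, outlier-marked ones were dropped (92 to 235 per array), the log2 deposited intensity of a probe's remaining spots was averaged, and the array's 75th percentile was subtracted. A probe counted as well above background where at least 0.5 of its spots did. Depth does not apply to arrays, and 3 per group limit the precision.

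The 6 arrays were fitted with limma 3.58.1 (R 4.3.3), each group having its own mean, and p-values of the two-sided moderated tests were adjusted after Benjamini and Hochberg across the 29348 probes. Genes were named through the accession on the probe, with the brightest probe standing for a gene, and all matched genes are described. Of probes and ultraconserved elements without a gene, the 2 with the largest rise and the 2 with the largest fall are named, among those well above background on all 6 arrays (unnamed probes also past the threshold, without overlap). The members and lists were chosen with earlier results of these data known. The array design names another build than the gene table, so coordinates are given only for the RefSeq promoter windows, on GRCr8.

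Labels share replicate numbers 1 to 3 between groups. Deviations from the group means correlated at 0.48, 0.18 and 0.23 for the pairs numbered 1, 2 and 3, and at 0.35 for WKY 3 with SHR-C 2 and 0.30 for WKY 2 with SHR-C 3. All equal-numbered pairs exceeded 0.1 and were fitted as blocks in an alternative, but only number 1 stands out as a pair, and the labels give no shared animal or batch. Normexp used the median signal with an offset of 50, since the files used here hold no mean signal column. Scaling to control probes, another planned setting, was not run because their recorded slope is 0.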

Additional observations from a re-analysis of the deposited data

How the results depend on the processing

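Of the settings tried, normexp gave 9506 called probes and the filter for all 6 arrays 12002, against 19378, and 65 and 72 lower ultraconserved probes against 308, with 465 under no filter. The count of lower genes, 2, was 1 with quantile normalization, normexp and the mean of probes, 0 with no filter, all 4 groups in the fit and the scan session as a random block, 0 to 1 on leaving out 1 array, and 3 (with 14 higher and Pgk1 added) with the percentile over probes bright on all arrays. With the replicate block, 20322 probes, 20 higher and 0 lower genes passed; the block ended the calls of Ldha and Fgf2, added Cse1l and changed no other named gene. Leaving out both arrays numbered 1, chosen after seeing the data, gave 22821 called probes, 17 higher genes and 1 lower. Leaving out single arrays gave 16903 to 20329 called probes and 15 to 19 higher genes. The difference in the share above background was -9.98 with the flag for positive and significant signal, and that of E1A -0.39 with the median signal. Signs turned for Fgf2 (0.11 quantile, 0.15 normexp), Map2 (1.13 and 0.50), B2m (-0.005) and Med16 (-0.14) with the other percentile, and Ldha with the mean of probes (0.47). On leaving out 1 array Gusb ranged from -0.47 to 0.23, Map2 from -0.28 to 0.29, Med16 from -0.071 to 0.51, Pop7 from -0.17 to 0.10 and Sdha from -0.26 to 0.069. The cause was not tested. Signal over background limits dim probes most.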

Other observations

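The treated SHR arrays, which enter no comparison here, split over the probes with the widest rises. Of the 93 probes at least 16-fold higher in SHR-C, 39 lay nearer the WKY mean than the SHR-C mean on SHR-Bh 2, 39 on SHR-Bh 3 and 41 on SHR-Ca 1, and 38 did so on all 3 of these arrays. On SHR-Bh 1, SHR-Ca 2 and SHR-Ca 3 the counts were 0, 6 and 4, and 37 of the 38 lay nearer SHR-C on all of these. Ppp2r2b, which helps direct protein phosphatase 2A, is among those that split: it stood at 1.42, -2.73 and -2.79 on SHR-Bh 1, 2 and 3 and at -3.22, 1.73 and 2.53 on SHR-Ca 1, 2 and 3. P2rx2, the ATP-gated channel, stood at -2.24, -5.67 and -6.53 on the SHR-Bh arrays and -6.10, -1.79 and -0.95 on the SHR-Ca arrays. Ptk2b, also on the signalling list, split on the same arrays, at -1.01, -2.42 and -2.29 on the SHR-Bh arrays and -2.32, 0.09 and 0.13 on the SHR-Ca arrays. ASRNV20022464 stood at 5.70, -3.16 and -3.08 and at -2.73, 6.07 and 6.76 in the same order. For ASRNV20023979 the levels were 4.45, -5.55 and -5.41 and then -5.54, 4.52 and 5.63. Cyp2e1 did not split, at 4.25, 5.09 and 4.99 on the SHR-Bh arrays and 6.26, 5.97 and 6.28 on the SHR-Ca arrays. Of the 264 probes at least 16-fold lower, 0 to 5 per treated array lay nearer WKY. The arrays were set apart by these values and not by their labels, so no groups were compared.

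Both arrays numbered 1 shared a set of high probes. Out of the 20607 probes bright enough throughout, 650 (3.15%) were more than 1 log2 unit higher on WKY 1 than on WKY 2 and WKY 3, and likewise on SHR-C 1 than on SHR-C 2 and SHR-C 3. The same count was 0 for number 2 and 6 for number 3. Within WKY alone, 1278 probes were so raised on WKY 1, 2 on WKY 2 and 178 on WKY 3. Within SHR-C alone, the counts were 1539, 64 and 137 on SHR-C 1, 2 and 3. The shared counts for numbers 2 and 3 thus start from far shorter lists. The median level of the 650 was 0.40, -1.60 and -2.05 on WKY 1, 2 and 3 and 1.53, -1.67 and -1.11 on SHR-C 1, 2 and 3. None of the 32 named genes is among them, and 22 (3.38%) are ultraconserved element probes, against 0.893% of the 20607. Between the strains 35 of the 650 were called (5.38%), against 57.7% of the 20607, and the choice by spread within groups itself lowers that share. WKY 1 and SHR-C 1 were read in different scan sessions.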
